A study of Homo sapiens with 6 samples.

Results

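The cells described here are the 3 untreated samples of BL-2, controls 1 to 3, out of 6 samples in the series. BL-2 is an established B cell line grown from a Burkitt lymphoma, and these 3 samples received no agent. The other 3 samples had been given lipopolysaccharide, a component of bacterial outer membranes, for 6 h, and none of their values is used. RNA of each sample was hybridised to its own Affymetrix array, on which a gene is read by 1 or more probe sets, each a group of short probes. A gene entered through its brightest probe set that names 1 gene symbol, where brightest means the highest mean over the 3 controls, and 19775 genes were measured in this way.

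Genes were sorted by their mean log2 value over the 3 controls, so the members of each class were chosen by the measured levels themselves, and every class is a description, with no test. A mean of 12 or more was called high, 8 to 12 medium, 6.5 to 8 low and under 6.5 near background. There were 305 high genes, 1.54% of all genes measured, and 5636 medium genes, or 28.5%. High and medium genes together numbered 5941. Another 6196 genes were low, and 7638, or 38.6%, were near background. The class counts of every gene list below are to be read beside these shares, and no list was tested against them. The median over all genes was 6.79. Each probe set has its own scale, set by how well its probes bind, so a class places a gene roughly and the levels of different genes are not ranked here. Values are given per control, in the order 1 to 3, or as the mean ± SD over the 3 controls (n = 3). The labels do not say that the controls came from separate cultures, so the SD may be partly technical, and in RNA of a whole culture fewer cells with a transcript and less of it per cell cannot be told apart.

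**Figure D1:**
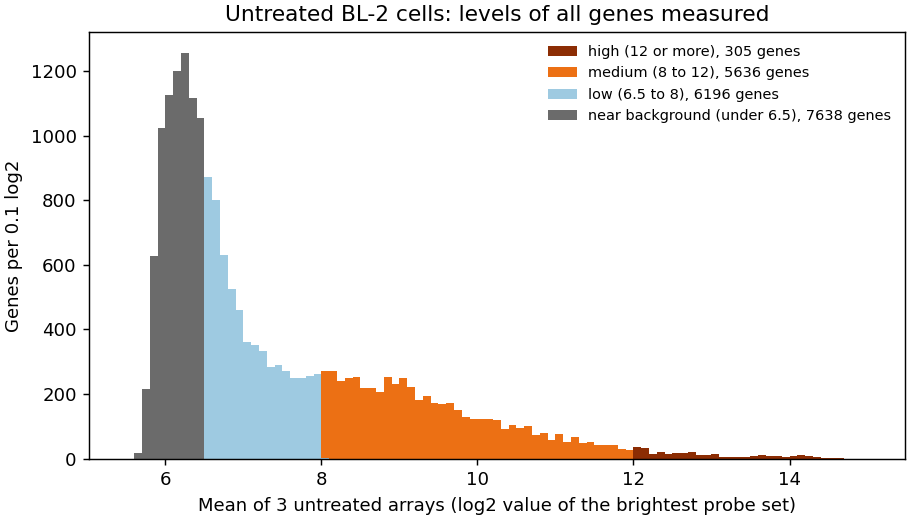
Histogram of the mean of the 3 untreated arrays (x axis, log2 value of the brightest probe set) for all 19775 genes (y axis, genes per 0.1 log2), coloured by class. The distribution has its peak under 6.5, and the 305 high genes form a thin tail from 12 upwards.

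The 3 arrays were close to each other. Correlations between controls over all probe sets ran from 0.994 to 0.996, which describes arrays that share nearly all their probe effects, and 0 values were identical. The array medians were 6.45, 6.46 and 6.44. In all 3 controls taken singly, 17904 genes, or 90.5%, kept the class of their mean. Control 1 stood slightly apart. Its added hybridisation controls averaged 10.46, against 10.76 and 10.86 in controls 2 and 3. Of the 305 high genes, 261 had their lowest value there, beside 32.5% of all genes and 23.2% of medium genes. The median difference from the mean of controls 2 and 3 was -0.20 in the high class and 0.067 in the medium class. After quantile normalisation, which gives the arrays equal distributions, these medians were -0.0068 and -0.019.

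Burkitt lymphoma is a fast-dividing tumour of B cells from the germinal centre, the structure in lymphoid tissue where B cells mutate their antibody genes and are selected. Its defining lesion places the growth regulator gene MYC under the control of an immunoglobulin gene. MYC protein, with its partner MAX, binds DNA at E-box sequences and raises the output of genes for ribosomes, nucleotides and energy metabolism.

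Marker genes of such a cell are given first. All 7 were in the medium or high class, beside 1.54% of all genes high and 28.5% medium. The markers and limits were chosen with earlier results of these data known, so this is no check of the label. MS4A1, which encodes the B cell surface protein CD20, measured 12.91, 13.13 and 13.12. MME, the germinal centre surface enzyme CD10, measured 9.95, 10.18 and 10.12. CD38, an enzyme of the surface of germinal centre and plasma cells, measured 9.96, 9.71 and 9.76. These surface markers stayed in the same class in every control.

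BCL6, the repressor that holds B cells in the germinal centre state, measured 11.23, 11.21 and 11.38. PAX5, the factor that fixes B cell identity, measured 10.18, 9.47 and 9.97, and its control 2 was the lowest of the 3. TCL1A, a co-activator of the kinase AKT, measured 12.27, 11.92 and 12.09. Its control 2 fell just short of the high class while the mean did not. MYC measured 12.52, 12.69 and 12.88, high in every control.

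**Figure D2:**
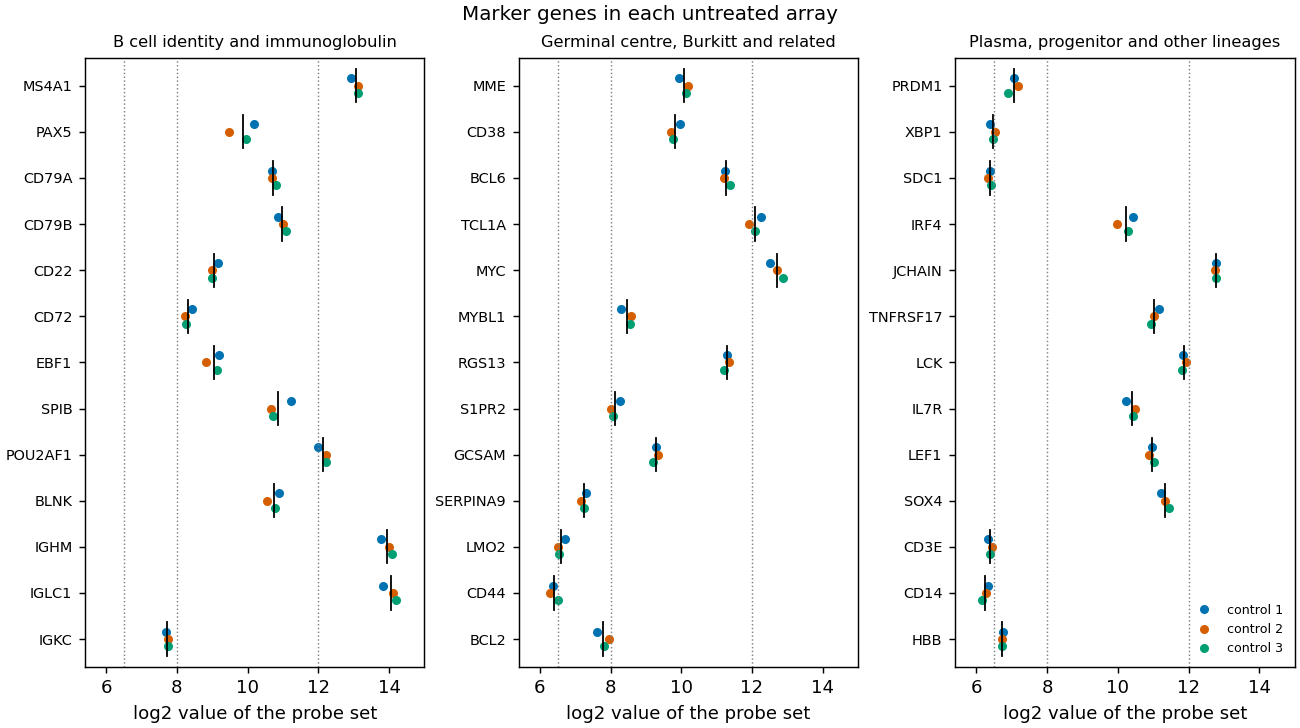
Log2 values (x axis) of B cell, germinal centre, plasma cell and other marker genes in each untreated array, coloured by control, with the mean as a black bar and the class limits 6.5, 8 and 12 as dotted lines. MS4A1, TCL1A, MYC, POU2AF1, IGHM, IGLC1 and JCHAIN have means past 12, and XBP1, SDC1, CD44, CD3E and CD14 have means under 6.5.

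Of 25 measured genes of general B cell identity, 4 were high, 16 medium, 4 low and 1 near background, with a median of 10.03. Over all genes 1.54% were high and 28.5% medium, and since the limits and the lists were chosen with these levels known, nothing is read from the difference. The high members were MS4A1, POU2AF1, FCRLA and CD24. POU2AF1, the co-activator of octamer-binding factors at antibody genes, measured 12.003, 12.21 and 12.21. FCRLA, an intracellular receptor-like protein of B cells, stood at 12.11 ± 0.11, and CD24, a surface glycoprotein, at 12.38 ± 0.013.

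The B cell receptor signals through its paired chains CD79A and CD79B, and both were medium. CD79A measured 10.70, 10.70 and 10.79, and CD79B measured 10.85, 10.996 and 11.08. The inhibitory receptors CD22 and CD72 were medium at 9.05 ± 0.10 and 8.31 ± 0.11. Of the transcription factors that act with PAX5, EBF1 stood at 9.05 ± 0.20 and SPIB at 10.86 ± 0.31, both medium. The adaptor BLNK, which links the receptor's kinases to calcium signalling, was medium at 10.73 ± 0.18.

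Several B cell genes were low or near background in the same cells. BANK1, a scaffold of B cell receptor signalling, measured 6.44, 6.48 and 6.48, near background in every control, and all 3 of its probe sets lay below that limit. TNFRSF13C, the receptor for the survival factor BAFF, was low at 7.18 ± 0.025. The Fc receptor-like genes FCRL1 and FCRL2 were also low, at 7.04 ± 0.11 and 6.93 ± 0.14. The remaining low member, IGLL5, is read by probe sets that related light chain genes may share.

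The immunoglobulin genes split by chain. IGHM, the constant region of IgM heavy chains, measured 13.77, 14.005 and 14.07. IGLC1, a lambda light chain constant region, measured 13.84, 14.10 and 14.197. IGKC, the kappa constant region, measured 7.69, 7.76 and 7.74, in the low class in every control. IGHG1 and IGHD, the constant regions of IgG1 and IgD, were low at 7.04 ± 0.11 and 6.78 ± 0.11, but each has a probe set shared with other genes at 8 or more, so their class is uncertain, and counting such probe sets 6 of the 8 immunoglobulin genes reached 8 in place of 4. IGLL1, a surrogate light chain of B cell precursors, was medium at 9.15 ± 0.082. Immunoglobulin genes resemble each other closely, and probe sets shared among lambda genes can read each other's transcripts, so the lambda level is that of the group more than of IGLC1. The list of 8 immunoglobulin genes was drawn up after the values were seen.

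Germinal centre genes followed the general B cell genes. Of 23 measured, 2 were high, 16 medium, 5 low and 0 near background, with a median of 9.53. The high members were TCL1A and GNA13, the G protein subunit that confines B cells to the follicle, at 12.04 ± 0.05. RGS13, a regulator that damps chemokine signalling in germinal centre cells, measured 11.30, 11.36 and 11.21. MYBL1, a MYB family factor of dividing germinal centre cells, measured 8.30, 8.57 and 8.54. ELL3, a germinal centre elongation factor, and IRF8, a factor that shapes B cell fate, were medium at 11.07 ± 0.18 and 11.05 ± 0.11. The sphingosine receptor S1PR2, which signals through GNA13, lay close to the lower edge of the medium class at 8.12 ± 0.14, and the receptor P2RY8 of the same confinement pathway stood at 10.55 ± 0.11.

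Not every germinal centre gene was in the upper classes. LMO2, an adaptor of transcription factor complexes, measured 6.70, 6.53 and 6.56. SERPINA9, a protease inhibitor named for germinal centre B cells, was low at 7.25 ± 0.075. SPI1, the factor PU.1 of B and myeloid cells, was low at 7.04 ± 0.15, as were TOX, a nuclear factor, at 6.89 ± 0.10 and the homing receptor CXCR5 at 7.88 ± 0.036.

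Within the germinal centre, dividing cells of the dark zone and antigen-testing cells of the light zone use different genes, and 10 of 14 measured zone genes were medium. CXCR4, the receptor that draws cells to the dark zone, measured 12.01, 12.01 and 11.83. CD83 and CD86, light zone surface proteins, were medium at 9.91 ± 0.17 and 8.54 ± 0.058. FOXO1, a dark zone factor, measured 8.81, 7.79 and 7.91 and moved from medium in control 1 to low in the other two. BCL2A1, a light zone survival gene, was low at 7.84 ± 0.18, and EGR1, an immediate early gene, was low at 6.65 ± 0.22.

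Promoter sequence is a feature that the classes did not use. RefSeq promoters (assembly GRCh38.p14), each from 250 bases before to 50 bases after a gene's start, were matched by gene ID for 15382 of the 19775 genes. A promoter was counted as CpG-rich where it had an observed over expected CG ratio of at least 0.6 and at least 50% G and C. Such promoters are typical of genes used in many cell types, and many tissue-restricted genes lack them. The following 4 promoters, chosen after their values were seen, show the range: RPS6, a ribosomal protein gene, and LDHA and LDHC, lactate dehydrogenase genes of most cells and of the testis, have CpG-rich promoters, and CD79A does not. They are written 5′ to 3′ along the gene, with CG dinucleotides in capitals.
RPS6 (chr9:19380187-19380486, minus strand): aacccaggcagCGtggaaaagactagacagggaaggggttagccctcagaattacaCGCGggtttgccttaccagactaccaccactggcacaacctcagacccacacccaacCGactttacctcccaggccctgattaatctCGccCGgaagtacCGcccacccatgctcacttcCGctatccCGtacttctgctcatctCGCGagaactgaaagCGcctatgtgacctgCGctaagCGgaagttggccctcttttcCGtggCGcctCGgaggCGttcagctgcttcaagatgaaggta
LDHA (chr11:18394313-18394612, plus strand): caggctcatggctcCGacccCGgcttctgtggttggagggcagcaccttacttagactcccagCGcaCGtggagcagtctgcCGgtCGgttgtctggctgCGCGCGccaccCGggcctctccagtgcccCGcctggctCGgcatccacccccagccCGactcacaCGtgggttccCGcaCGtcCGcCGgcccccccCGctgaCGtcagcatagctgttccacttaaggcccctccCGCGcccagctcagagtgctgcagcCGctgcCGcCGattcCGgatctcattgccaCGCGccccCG
LDHC (chr11:18412068-18412367, plus strand): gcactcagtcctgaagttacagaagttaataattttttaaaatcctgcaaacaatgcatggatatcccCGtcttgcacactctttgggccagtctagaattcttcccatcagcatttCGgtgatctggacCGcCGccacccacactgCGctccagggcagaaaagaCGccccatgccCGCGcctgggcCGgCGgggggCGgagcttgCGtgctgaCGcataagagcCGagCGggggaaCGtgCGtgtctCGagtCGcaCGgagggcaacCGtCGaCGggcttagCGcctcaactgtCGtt
CD79A (chr19:41877029-41877328, plus strand): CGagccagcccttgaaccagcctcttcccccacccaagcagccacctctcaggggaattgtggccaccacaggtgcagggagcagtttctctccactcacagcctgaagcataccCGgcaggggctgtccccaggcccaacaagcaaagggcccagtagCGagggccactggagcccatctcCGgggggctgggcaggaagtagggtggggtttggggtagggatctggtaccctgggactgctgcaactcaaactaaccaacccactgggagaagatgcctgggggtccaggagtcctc

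The 300 bases hold 18 CG dinucleotides in RPS6, 29 in LDHA, 25 in LDHC and 4 in CD79A. CD79A is no poorer in G and C, at 63.0% against 56.7% in RPS6, but its CG ratio is 0.134 against 0.771. LDHA and LDHC lie side by side on chromosome 11. LDHA was high, at 13.37, 13.82 and 13.78, and its promoter contains the E-box letters CACGTG. LDHC measured 6.46, 6.49 and 6.56, in the low class at the very edge of near background, and its promoter is as CpG-rich as that of LDHA, with a CG ratio of 0.991 against 0.825. RPS6 was high at 14.25 ± 0.14, while CD79A was medium with a CpG-poor promoter.

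Over all matched genes 64.4% of promoters were CpG-rich. The share was 88.0% of high genes (228 of 259), 87.0% of medium genes (4188 of 4814), 66.6% of low genes and 41.9% of near-background genes (2333 of 5570). The median CG ratio took the same order of classes, at 0.882, 0.873, 0.773 and 0.501. The letters TATAA, searched on both strands as were all motifs, were present in 15.6% of all promoters, in 10.2% of medium genes and 22.9% of near-background genes, and in 19.7% of high genes. GGGCGG, which is itself rich in G, C and CG, was present in 58.9% of all promoters, 68.3% of high, 71.9% of medium and 41.8% of near-background genes. CACGTG was present in 8.90% of all, 10.4% of high, 11.4% of medium and 6.57% of near-background genes.

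B cell genes of the upper classes often had CpG-poor promoters. Of 17 general B cell genes with a promoter, 4 were CpG-rich (PAX5, CD24, RALGPS2 and SWAP70), and the median CG ratio of the list was 0.252. Of the 14 at a level of 8 or more, 10 were not CpG-rich, beside 657 of 5073 among all genes at that level with a promoter. The class II antigen presentation genes were similar in this respect, with 8 of 12 at a level of 8 or more not CpG-rich. Of 26 DNA replication genes with a promoter 26 were CpG-rich, as were 22 of 23 mitosis genes. Of 30 genes of other tissues 3 were CpG-rich, and 20 of the 30 contained TATAA. The octamer ATGCAAAT, the site of the factors that POU2AF1 joins, was present in 1.51% of all promoters and in 2 of the 17 general B cell genes, VPREB3 and CD53. These shares describe letters in a fixed window and not binding.

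**Figure D3:**
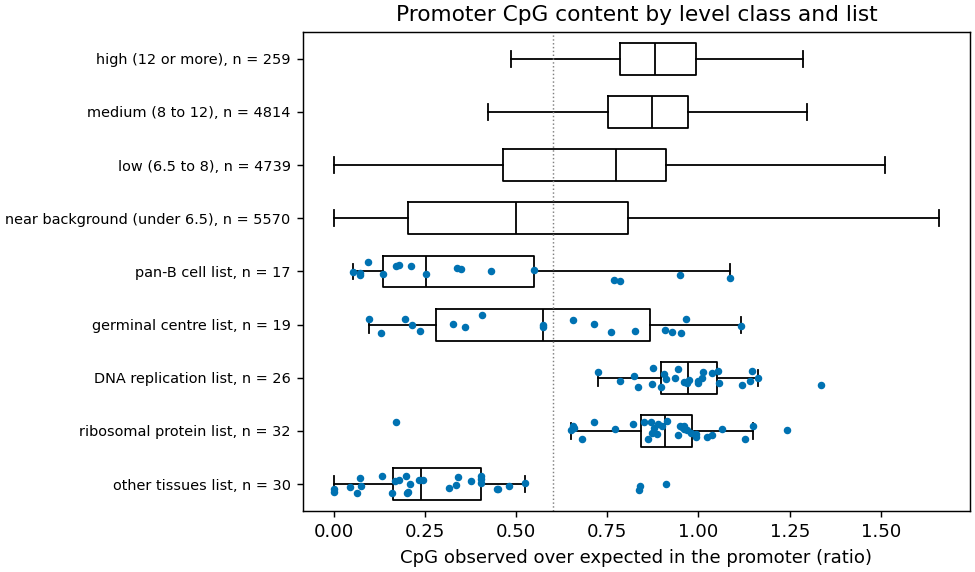
Observed over expected CG ratio of promoters (x axis) for the 4 level classes and for 5 gene lists; boxes span the quartiles with the median as a line, whiskers reach the farthest value within 1.5 box lengths, blue points are single genes of a list, and the dotted line marks 0.6. High and medium genes lie mostly past the line, as do replication and ribosomal protein genes, while the median of the general B cell list is 0.252.

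Genes that are recurrently mutated in or characteristic of Burkitt lymphoma were mostly in the upper classes: of 25 measured, 5 were high, 16 medium, 3 low and 1 near background. The ID3 and TCF3 pair, an inhibitor and the E protein it restrains, were both medium, with ID3 at 11.45, 11.46 and 11.61 and TCF3 at 11.73, 11.78 and 11.89. CCND3, the D-type cyclin of germinal centre cells, measured 10.93, 10.64 and 10.81. DDX3X, an RNA helicase, and RHOA, a small GTPase, were high at 12.25 ± 0.041 and 12.67 ± 0.068. ARID1A and SMARCA4, subunits of a chromatin remodelling complex, were medium at 9.49 ± 0.38 and 10.99 ± 0.24. TERT, the catalytic subunit of telomerase, was low at 6.94 ± 0.011, and the near-background member was TFEC, a factor related to MITF, at 5.85 ± 0.014. SOX11, best known from mantle cell lymphoma and found in some Burkitt lymphomas, was medium at 8.55 ± 0.13.

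The E proteins and their inhibitors were measured as a family of 9, of which 8 were medium. TCF4 and TCF12, the other E proteins, stood at 11.87 ± 0.13 and 9.44 ± 0.064. The inhibitors ID1, ID2 and ID4 stood at 9.02 ± 0.15, 10.26 ± 0.07 and 9.62 ± 0.23. The remaining member, TAL1, a partner of E proteins in blood stem and red cells, was low at 6.90 ± 0.094. In the TCL1 family, TCL1A was high while TCL1B, its neighbour gene, was low at 6.78 ± 0.10 and MTCP1 near background at 6.26 ± 0.08.

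Among 13 genes of the MYC network, MYC was the 1 high member, 4 were medium and 8 low. MYCN and MYCL, the other MYC family members, were low at 6.79 ± 0.012 and 6.80 ± 0.16. MAX, the obligate partner, measured 10.62, 10.56 and 10.60. The antagonists that compete for MAX varied: MXI1 was medium at 9.74 ± 0.11 and MNT at 8.09 ± 0.16, whereas MXD1 and MXD3 were low at 6.77 ± 0.031 and 7.90 ± 0.10.

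Genes that separate the activated B cell type of large B cell lymphoma from germinal centre types were mixed. Of 21 measured, 1 was high, 11 medium, 7 low and 2 near background. The high member was IGHM, which any IgM-bearing B cell uses. The near-background members were CD44, an adhesion receptor, and CCND2, a D-type cyclin. CD44 measured 6.38, 6.29 and 6.53, and the second brightest of its 13 probe sets averaged 6.25. CCND2 measured 6.20, 6.37 and 6.27. BCL2, the survival gene that Burkitt lymphoma typically lacks, was low at 7.62, 7.94 and 7.82, while IRF4, a factor of activated B cells and plasma cells, was medium at 10.44, 9.99 and 10.30. The serine kinases PIM1 and PIM2 were medium at 9.19 ± 0.18 and 9.15 ± 0.12.

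Plasma cells secrete antibody under the control of PRDM1 and XBP1, and neither reached 8. PRDM1 measured 7.08, 7.19 and 6.90, XBP1 measured 6.38, 6.52 and 6.47, and SDC1, the plasma cell surface proteoglycan CD138, measured 6.38, 6.32 and 6.40. PRDM1 was low in every control, and SDC1 near background in every control. Over the list of 16 plasma cell genes, 1 was high, 7 medium, 3 low and 5 near background. The high member was JCHAIN, which joins IgM units, at 12.78, 12.76 and 12.77. TNFRSF17, the receptor BCMA, was medium at 11.03 ± 0.11, as were the secretory proteins MZB1 at 9.92 ± 0.13 and SSR4 at 11.02 ± 0.039. CD27, a receptor of memory and plasma cells, was medium at 9.19 ± 0.13.

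Progenitor genes were mostly near background, with 9 of 16 measured there, 2 low and 5 medium. RAG1 and RAG2, the recombinase that assembles antibody genes, stood at 5.99 ± 0.076 and 6.41 ± 0.18, and VPREB1, a surrogate light chain, at 6.11 ± 0.021. DNTT, which adds bases at antibody gene joints, was low at 7.95 ± 0.076, just short of 8, and CD34, a stem cell surface protein, low at 6.73 ± 0.057. Of the medium members, IL7R, the interleukin 7 receptor, measured 10.24, 10.49 and 10.44. LEF1, a nuclear partner of beta-catenin, measured 10.98, 10.90 and 11.03, and SOX4, a factor of early B cells, measured 11.22, 11.34 and 11.45. CD99, a surface glycoprotein, stood at 9.56 ± 0.039, and the fifth medium member was IGLL1. All 5 were in the same class in every control.

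Genes of naive, memory and marginal zone B cells were 3 medium, 7 low and 8 near background of 18 measured. The medium members were BACH2, a repressor that delays plasma cell formation, at 10.26 ± 0.16, CD27 and the interleukin 4 receptor IL4R at 8.17 ± 0.05. CR2 and FCER2, surface receptors of resting B cells known as CD21 and CD23, were near background at 6.09 ± 0.13 and 6.42 ± 0.055. CCR6, a homing receptor, CD200, an inhibitory ligand, and TBX21, a factor of atypical memory cells, were near background at 5.92 ± 0.053, 5.99 ± 0.086 and 6.24 ± 0.013. CCR7, a receptor for lymph node entry, was low with the wide spread of 7.54, 7.99 and 7.31.

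Markers of other cell types were low or near background with few exceptions. Of 21 T cell markers, 1 was medium, 10 low and 10 near background. Of 11 natural killer cell markers 8 and of 18 myeloid markers 13 were near background, and 0 of either list reached 8. Over all genes 1.54% were high, 28.5% medium and 38.6% near background, and no list was tested against these shares. The defining T cell genes CD3D, CD3E and CD3G, signalling chains of the T cell receptor, stood at 6.54 ± 0.044, 6.39 ± 0.062 and 6.36 ± 0.12. The myeloid genes CD14 and MPO, a bacterial sensor and a granule enzyme, stood at 6.25 ± 0.082 and 6.25 ± 0.023. HBB, a haemoglobin chain, EPCAM, an epithelial adhesion protein, and VWF, a clotting protein of endothelium, stood at 6.73 ± 0.025, 5.91 ± 0.10 and 6.72 ± 0.025. The sum of the myeloid markers on the linear scale was 1462, 1510 and 1462 in controls 1 to 3, and that of the T cell markers 5553, 5808 and 5533. Each sum includes the background value of every listed gene, so it is no amount of myeloid or T cell transcript. LCK, described next, makes up most of the T cell sum.

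The exception among T cell markers was LCK, the SRC family kinase of T cell receptor signalling. LCK measured 11.83, 11.92 and 11.83, medium in every control, and its second probe set averaged 10.53. Both are of the kind with suffix _s_at, which can match several transcripts. Without probe sets of suffix _x_at or _s_at, 0 T cell markers reached 8. Neither of these LCK probe sets is then read, so that count cannot test the LCK value. The other members with which LCK acts in T cells were not in that class: ZAP70, a kinase, was low at 7.72 ± 0.14, and LAT, an adaptor, low at 6.62 ± 0.038. EPOR, the erythropoietin receptor, was the 1 erythroid gene to reach 8, at 8.02 ± 0.087, with control 1 below the limit. MBP, the myelin basic protein gene whose locus also gives transcripts in blood cells, was the 1 of 44 genes of other tissues to reach 8, at 8.97, 8.98 and 8.88.

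Genes best known from other tissues were also measured. The 44 genes of other tissues had a median of 6.42, and 26 were near background and 17 low. Of 102 olfactory receptor genes 85 were near background, with a median of 6.18, and 2 reached 8. Taste receptor genes were near background in 20 of 20 cases. The 16 measured cancer-testis genes, which many tumours switch on, were all near background, with a median of 6.05, PRAME standing at 6.39 ± 0.056 and MAGEA4 at 5.86 ± 0.023. The low class overlaps this range in part: KLK3, the prostate protease, stood at 7.71 ± 0.07, and COL1A1, a fibroblast collagen, at 7.99 ± 0.062 with control 2 past 8.

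**Figure D4:**
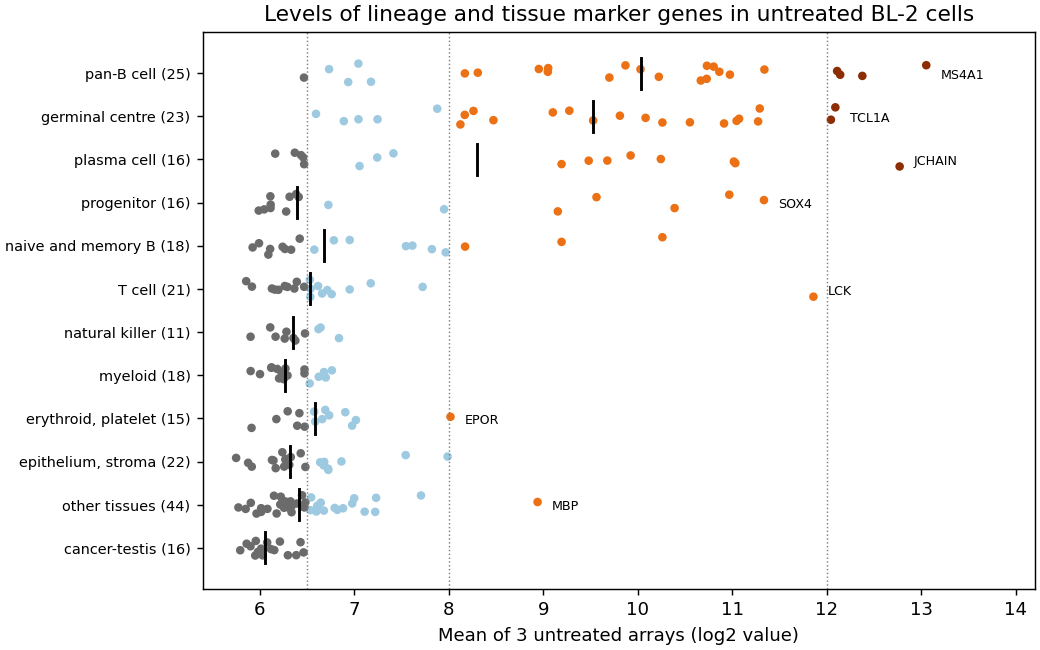
Mean of the 3 untreated arrays (x axis, log2) for every measured member of 12 marker lists, the number measured in brackets, coloured by class as in the histogram, with each list's median as a black bar; vertical scatter has no meaning. The general B cell and germinal centre lists have medians of 10.03 and 9.53. The plasma cell, progenitor, and naive and memory B cell lists have members on both sides of 8. The other lists, from T cell to cancer-testis, lie under 8 except for LCK, EPOR and MBP.

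Ribosomal proteins, the structural parts of the protein-making machine, stood mostly in the high class. Of 59 ribosomal protein genes measured, recognised by their symbols, 49 were high, and they made up 16.1% of the 305 high genes. In the list of 37 taken for description, 31 were high and the median was 13.81. RPS6 measured 14.09, 14.34 and 14.33 and RPL32 measured 14.05, 14.34 and 14.32. In 33 of the 37 control 1 was lowest, with a median difference of -0.29 from the mean of the other two, and after quantile normalisation, which gives the arrays equal distributions, that difference was -0.0020. The paralogs with restricted use were in lower classes: RPL3L of muscle was near background at 6.28 ± 0.045, and RPL10L of testis low at 6.76 ± 0.015. Ribosomal protein genes have many processed copies in the genome, so their probe sets can read more than 1 locus. Without probe sets of suffix _x_at or _s_at, 13 of the 37 list members reached 8 in place of 34, and 6 were near background in place of 1. A gene with no other kind of probe set is then left with no value. The smaller count therefore does not show that the other members fell under 8.

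Translation factors were 9 high and 11 medium of 23. EEF1A1, the elongation factor that delivers transfer RNA, measured 14.36, 14.76 and 14.81, while its muscle and nerve paralog EEF1A2 was near background at 6.49 ± 0.037. The cap-binding protein EIF4E was medium at 10.67 ± 0.058. Of 22 nucleolar genes that build ribosomes 3 were high and 17 medium. NPM1 and NCL, abundant nucleolar proteins, and FBL, which methylates ribosomal RNA, were the high ones at 13.71 ± 0.20, 12.54 ± 0.15 and 12.30 ± 0.079. Of the 17 nucleolar genes with a promoter, 7 contained CACGTG, beside 8.90% of all promoters. Lists varied in this respect, and the letters were not particular to nucleolar genes. They were present in 5 of 17 translation factor genes and 6 of 25 nucleotide, polyamine and one-carbon genes. They were also present in 5 of 18 secretory pathway genes, 2 of 32 ribosomal protein genes and 1 of 19 respiratory chain genes.

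Enzymes that make nucleotides, polyamines and one-carbon units were 8 high and 18 medium of 28, with a median of 10.60. ODC1, the first enzyme of polyamine synthesis, measured 13.21, 13.20 and 13.31. RRM2, a ribonucleotide reductase subunit, stood at 13.08 ± 0.15, TYMS, which makes thymidylate, at 12.50 ± 0.053, and NME1, a nucleoside diphosphate kinase, at 12.77 ± 0.13. The mitochondrial enzymes SHMT2 and MTHFD2 of one-carbon metabolism were medium at 11.39 ± 0.23 and high at 12.11 ± 0.13. SHMT1, the cytosolic form, was near background at 6.19 ± 0.13, although a probe set that it shares with another gene stood at 8 or more, so its class is uncertain. CAD, which starts pyrimidine synthesis, varied between controls at 10.29, 9.58 and 9.96.

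Glycolysis genes were 8 high, 9 medium, 6 low and 5 near background of 28. The broadly used forms ALDOA, GAPDH, PGK1, PGAM1, ENO1, PKM, LDHA and LDHB were the high ones. ENO1 measured 12.84, 13.24 and 13.21. Several tissue forms were low or near background: ENO2 of neurons and ENO3 of muscle were low at 7.84 ± 0.059 and 6.94 ± 0.021, and PGK2 of testis, PGAM2 of muscle and GAPDHS of sperm were near background at 6.39 ± 0.071, 6.36 ± 0.16 and 6.21 ± 0.027. ALDOC, the brain aldolase, was medium at 8.41 ± 0.54. Both hexokinases HK1 and HK2 were medium at 10.19 ± 0.076 and 9.84 ± 0.051. The glucose transporters SLC2A1 and SLC2A3 were low and near background at 7.499 ± 0.12 and 6.44 ± 0.11.

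Respiratory chain and ATP synthase genes were 10 high and 11 medium of 25. ATP5F1A, a subunit of ATP synthase, stood at 13.38 ± 0.17, and COX4I1, a cytochrome oxidase subunit, at 12.91 ± 0.16. The lower members were tissue isoforms of cytochrome oxidase, COX4I2 and COX6A2 in the low class and COX7A1 and COX8C near background. All 22 measured proteasome genes were medium or high, 4 of them high, and the immune subunits PSMB8 and PSMB9, which shape peptides for class I presentation, were medium at 10.84 ± 0.059 and 10.05 ± 0.023. Heat shock genes were 7 high, 5 medium, 2 low and 3 near background of 17. HSP90AB1 and HSPD1, constitutive chaperones, stood at 13.69 ± 0.17 and 13.96 ± 0.23, and the stress-inducible HSPA6 was low at 6.501 ± 0.031.

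**Figure D5:**
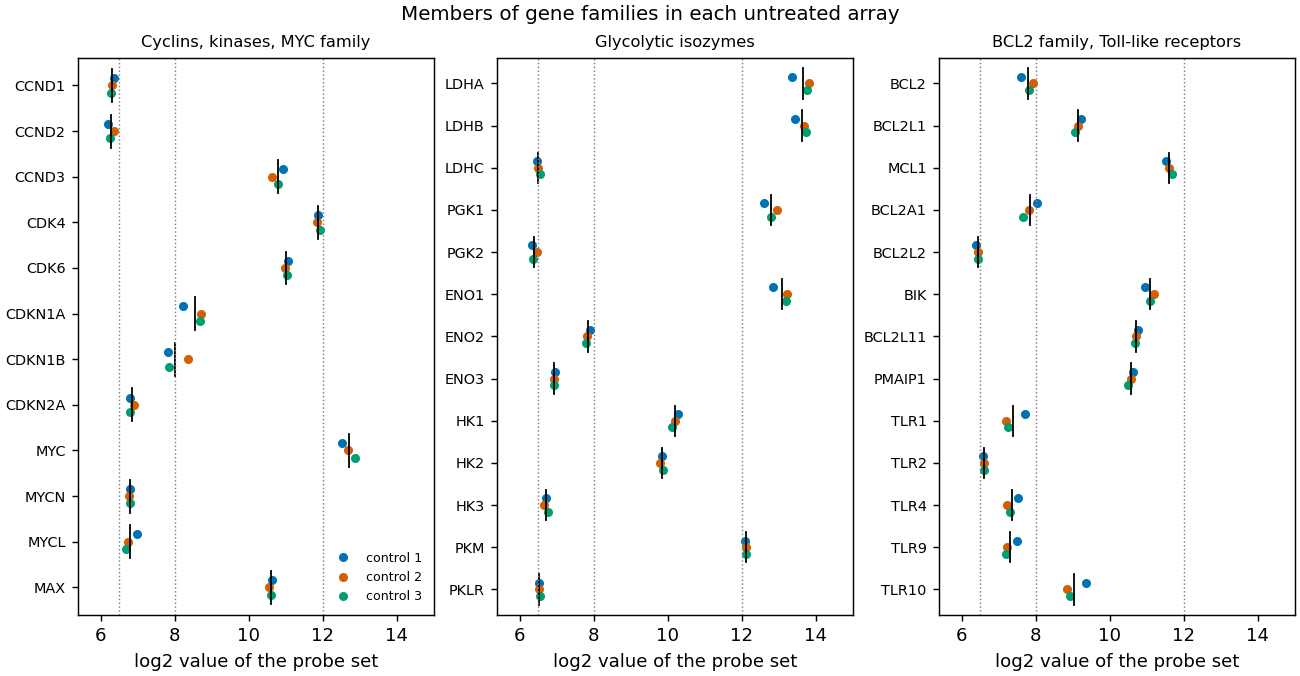
Log2 values (x axis) of members of gene families in each untreated array, coloured by control, with means as black bars and the class limits as dotted lines. In each family some members stand in the medium or high class and others in the low or near-background class, for example CCND3 against CCND1 and CCND2, and LDHA and LDHB against LDHC.

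Cell division genes were almost all in the medium class. Of 29 DNA replication genes, 3 were high and 26 medium, and of 30 genes of the G2 phase and mitosis, 2 were high, 27 medium and 1 low. PCNA, the clamp of replicating DNA polymerase, measured 12.62, 12.74 and 12.73. MCM6, a subunit of the replicative helicase, stood at 12.42 ± 0.10, and CDK1, the kinase that starts mitosis, at 11.78 ± 0.084. TOP2A, the topoisomerase of condensing chromosomes, stood at 11.21 ± 0.063 and BIRC5, a survival and spindle protein, at 10.63 ± 0.019. MKI67, the proliferation antigen Ki-67, measured 8.19, 8.51 and 9.22, a wider spread than the rest of its list. The low member was CENPE, a kinetochore motor, just under the limit at 7.88, 7.88 and 8.21.

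The regulators of entry into division were divided. Of 19 measured G1 cyclins, kinases and inhibitors, 11 were medium, 4 low and 4 near background. CCND1 and CCND2 were near background, CCND1 at 6.36, 6.30 and 6.28, while CCND3 was medium. Their kinases CDK4 and CDK6 were medium at 11.88 ± 0.035 and 11.02 ± 0.051. The inhibitor CDKN2A, which gives p16 and ARF, was low at 6.84 ± 0.061, and CDKN2B, its neighbour, near background at 6.36 ± 0.042. CDKN1A, the inhibitor p21, was medium at 8.23, 8.70 and 8.69, with control 1 the lowest. CDKN1B, p27, had 2 controls under 8 and 1 past it, at 7.83, 8.35 and 7.84.

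The BCL2 family sets the threshold for cell death, and its 16 measured members were 8 medium, 6 low and 2 near background. Of the protectors, MCL1 measured 11.52, 11.59 and 11.68 and BCL2L1 measured 9.22, 9.15 and 9.07, both medium. BCL2 and BCL2A1 were low, and BCL2L2 was near background at 6.43 ± 0.036, although a probe set it shares with another gene stood at 8 or more. Of the members that promote death by binding the protectors, BIK measured 10.96, 11.20 and 11.08, BCL2L11 (BIM) stood at 10.72 ± 0.054 and PMAIP1 (NOXA) at 10.57 ± 0.072, all medium. The pore-forming protein BAX was medium at 8.62 ± 0.067 and BAK1 low at 7.70 ± 0.10.

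Regulators and targets of p53, the DNA damage factor, were 13 medium and 6 low of 19 measured. MDM2, the ligase that destroys p53, stood at 10.29 ± 0.11, and the targets CCNG1 and RRM2B, a cyclin-like protein and a ribonucleotide reductase subunit, at 10.42 ± 0.16 and 10.05 ± 0.13. FAS, the death receptor, was low at 6.73 ± 0.10, and TP53I3, an oxidoreductase, low at 6.71 ± 0.069.

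Kinases and adaptors of the B cell receptor were 18 medium, 8 low and 2 near background of 28. LYN, the first kinase of the cascade, measured 10.40, 9.76 and 9.93, with control 1 the highest. SYK and BTK, the kinases that follow, stood at 10.43 ± 0.09 and 10.05 ± 0.071, and PLCG2, the phospholipase they activate, at 11.05 ± 0.052. BLK, a B cell SRC kinase, was medium at 9.70 ± 0.04. Of members best known from other cells, LCK was medium, as given above, LCP2, the adaptor SLP-76 of T cells, was near background at 6.26 ± 0.0081, and FGR, a myeloid SRC kinase, near background at 6.48 ± 0.06. PLCG1, the T cell phospholipase, was just within the medium class at 8.17 ± 0.047. PTPN6, a phosphatase that restrains the receptor, was low at 7.47, 6.97 and 6.87, with control 1 the highest.

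The phosphoinositide 3-kinase pathway carries the survival signal of the receptor, and 12 of 20 measured genes were medium, 7 low and 1 near background. That 12 became 4 with the mean over each gene's probe sets, 7 without probe sets of suffix _x_at or _s_at and 6 with limits 0.5 higher. Without the suffixed probe sets, a gene with no other kind is left with no value. The leukocyte subunits PIK3CD and PIK3CG stood at 9.72 ± 0.04 and 9.45 ± 0.049. AKT1 was medium at 8.90 ± 0.25 and MTOR, the growth kinase, low at 7.43 ± 0.045. The near-background member was INPP4B, a lipid phosphatase, at 5.98 ± 0.10.

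Nuclear factor kappa B genes were 12 medium, 7 low and 2 near background of 21. REL, the B cell subunit, stood at 10.56 ± 0.12, NFKB1 at 9.53 ± 0.27 and RELA at 8.92 ± 0.17. Of the non-canonical arm, RELB was medium at 8.58 ± 0.27, NFKB2 low at 7.69 ± 0.22 and its kinase MAP3K14 near background at 6.44 ± 0.086. NFKBIA, the inhibitor that the factor itself induces, measured 10.96, 10.10 and 10.18, with control 1 the highest. TRAF1, an adaptor that the pathway induces in other B cells, was near background at 6.48 ± 0.083.

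Toll-like receptors sense microbial products, and 4 of 22 measured genes of the receptors and their partners were medium, 14 low and 4 near background. TLR10, a receptor of B cells, measured 9.37, 8.85 and 8.93 and was the 1 receptor in the medium class. TLR4, the receptor for lipopolysaccharide, measured 7.52, 7.22 and 7.32, and its partner LY96 was low at 6.58 ± 0.17. TLR9 and TLR7, receptors for nucleic acids, were low at 7.30 ± 0.16 and 7.17 ± 0.14, and TLR3 was near background at 5.96 ± 0.14. The other medium genes were the adaptor MYD88 at 10.55 ± 0.14, the kinase IRAK1 at 10.90 ± 0.088 and LY86, a partner of CD180, at 9.84 ± 0.062. CD180 itself was low at 6.95 ± 0.056.

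Cytokine receptors and STAT factors were 11 medium, 12 low and 5 near background of 28. Over all genes 28.5% were medium, 31.3% low and 38.6% near background. The interferon receptor chains IFNAR2, IFNGR1 and IFNGR2 were medium at 9.30 ± 0.049, 8.39 ± 0.068 and 10.08 ± 0.11, and IFNAR1 was low at 7.90 ± 0.17. STAT6, the factor of interleukin 4 signalling, was medium at 9.66 ± 0.21 and STAT4, which T and natural killer cells use, near background at 6.41 ± 0.07. The tumour necrosis factor receptors TNFRSF1A and TNFRSF1B were near background at 6.42 ± 0.051 and 6.16 ± 0.041.

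Cytokines themselves were largely near background, with 26 of 37 there, 7 low, 3 medium and 1 high. The high member was MIF, a cytokine stored in most cells, at 12.95, 13.21 and 13.22. The medium ones were LTB, lymphotoxin beta, at 9.23, 9.72 and 9.57, IL16, which B and T cells hold as a precursor, at 8.57 ± 0.16, and TGFB1, a growth inhibitor, at 8.10 ± 0.15. IL6, IL10 and TNF, which activated B cells can secrete, stood at 6.17 ± 0.085, 6.33 ± 0.034 and 6.42 ± 0.034.

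Interferon response genes were 9 medium, 16 low and 9 near background of 34. Over all genes 28.5% were medium, 31.3% low and 38.6% near background. IFI16, a DNA sensor, measured 11.62, 11.96 and 12.06. TRIM22, an antiviral ligase, stood at 9.82 ± 0.11, ISG15, a ubiquitin-like protein, at 8.98 ± 0.05 and MX1, an antiviral GTPase, at 8.36 ± 0.036. IFIT1, IFI44L and RSAD2, genes with strong induction by interferon, were near background at 5.98 ± 0.094, 5.88 ± 0.037 and 6.15 ± 0.10.

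Antigen presentation genes were mostly in the upper classes. Of 17 class II genes, 3 were high, 11 medium, 3 low and 0 near background. HLA-DRA measured 12.99, 12.89 and 12.97, and CD74, the chain that guards the peptide groove, measured 12.73, 12.25 and 12.65. HLA-DPA1 was the other high member at 12.38 ± 0.14, and HLA-DMA and HLA-DMB, which load peptide, were medium at 10.34 ± 0.14 and 9.83 ± 0.22. CIITA, the master activator of class II genes, was low at 6.91 ± 0.078, while RFX5, its DNA-bound partner, was medium at 11.09 ± 0.14. Of 22 class I and peptide loading genes, 3 were high, 12 medium, 5 low and 2 near background, and B2M, the common light chain, stood at 13.29 ± 0.11. HLA genes are variable and alike, so values of single HLA genes depend on the alleles the probes match.

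Receptors of lymphocyte traffic were 7 medium, 13 low and 9 near background of 29. Over all genes 28.5% were medium, 31.3% low and 38.6% near background. CXCR4, P2RY8 and S1PR2 among the receptors are described above. S1PR1, the receptor that lets cells leave lymph nodes, was low at 6.72, 6.35 and 6.59, and GPR183, which draws activated B cells to the follicle edge, was near background at 5.85, 6.24 and 5.86. The integrin chains ITGA4 and ITGB1 were medium at 8.22 ± 0.10 and 10.55 ± 0.033. ITGAL and ITGB2, the chains of the integrin LFA-1, were low at 6.99 ± 0.079 and 6.98 ± 0.049, and its ligand ICAM1 was low at 7.58 ± 0.22 while ICAM2 and ICAM3 were medium at 10.34 ± 0.083 and 9.23 ± 0.22.

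Of 20 surface antigens that antibodies or engineered cells target in B cell cancers, 1 was high, 12 medium, 3 low and 4 near background. MS4A1 was the high one, and CD52 and CD70 were medium at 10.22 ± 0.029 and 9.004 ± 0.019. CD47, the signal against uptake by macrophages, was medium at 10.47 ± 0.024. The T cell inhibitory ligands CD274 and PDCD1LG2 and the receptor ROR1 were near background at 6.42 ± 0.10, 6.26 ± 0.021 and 6.35 ± 0.009.

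Chromatin regulators were 1 high, 20 medium, 11 low and 2 near background of 34. EZH2, the methyltransferase that silences genes in dividing germinal centre cells, measured 10.24, 10.20 and 10.23, and its paralog EZH1 was low at 7.54 ± 0.07. DNMT1, which copies DNA methylation, stood at 11.45 ± 0.16, and the enzymes that set it anew, DNMT3A and DNMT3B, were low at 7.22 ± 0.043 and 7.14 ± 0.025. The high member was HDAC1, a histone deacetylase, at 12.05 ± 0.084. KMT2D, a histone methyltransferase mutated in germinal centre lymphomas, is in the Burkitt list and was low at 7.32 ± 0.12.

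Genes that diversify antibodies and repair DNA were 3 high, 14 medium, 4 low and 1 near background of 22. UNG, which removes uracil from DNA, stood at 10.89 ± 0.12, and APEX1, which cuts the site it leaves, was high at 12.41 ± 0.057. XRCC5 and XRCC6, the end-binding Ku proteins, were high at 12.40 ± 0.11 and 12.64 ± 0.089. The near-background member was APOBEC1, an RNA editing enzyme of the gut, at 6.30 ± 0.15.

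Families of B cell transcription factors held members in every class. In the PAX family PAX5 was medium, PAX8 low at 7.85 ± 0.043, and PAX1, PAX2 and PAX3, used in embryonic tissues, near background at 6.34 ± 0.026, 6.37 ± 0.016 and 6.31 ± 0.024. Among the IKAROS family, IKZF1 and IKZF3 of lymphocytes were medium at 10.58 ± 0.21 and 9.0001 ± 0.28 and IKZF4 low at 6.60 ± 0.042. POU2F2, the octamer-binding factor of B cells, was medium at 8.26 ± 0.23, and POU2F3, of epithelial sensory cells, near background at 5.95 ± 0.05. ETS1 and FLI1 were medium at 11.30 ± 0.11 and 9.16 ± 0.11, and SPIC, a macrophage relative of SPIB, near background at 5.90 ± 0.039.

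Secretory pathway and unfolded protein response genes were 1 high, 14 medium, 3 low and 1 near background of 19, the last being XBP1. HSPA5, the main chaperone of the endoplasmic reticulum, stood at 11.62 ± 0.15, and the stress factor DDIT3 was low at 6.998 ± 0.11. ATF4, the factor of amino acid stress, measured 11.40, 12.14 and 12.15, and control 1 was the lowest. Of 12 noncoding RNA genes, 1 was high, 4 medium, 3 low and 4 near background. The high one was DANCR, a host of small nucleolar RNA, at 12.09 ± 0.11. PVT1, the neighbour of MYC, was near background at 6.39 ± 0.12, as was MIR17HG, the host of a microRNA cluster that MYC induces, at 5.80 ± 0.049. Levels of host transcripts such as DANCR and MIR17HG are given here, and the products cut from them were not tested.

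The controls differed most in a small set of genes. The SD exceeded 0.5 for 16 genes and 0.3 for 161 genes. The median SD was 0.129 in the high class, 0.093 in the medium class, 0.073 in the low class and 0.060 near background. DDIT4, an inhibitor of the growth kinase MTOR that low oxygen and stress induce, had the largest SD and measured 8.89, 10.61 and 10.03. BNIP3, a mitochondrial protein induced by low oxygen, measured 9.70, 10.74 and 10.19. Both were lowest in control 1 and highest in control 2. The next largest SDs after DDIT4 were those of POM121C and HMGCS1. HMGCS1, a gene of cholesterol synthesis, showed that order too, at 8.54, 9.78 and 8.98. POM121C was highest in control 1, at 10.04, 8.76 and 9.18.

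Other genes of the low oxygen response were also lowest in control 1 and highest in control 2. BNIP3L measured 9.37, 10.34 and 9.88, ANKRD37 measured 7.69, 8.58 and 8.34, and KDM3A, a histone demethylase, measured 8.71, 9.40 and 8.98. In a list of 19 measured hypoxia response genes, 13 were lowest in control 1 and 2 (EGLN3 and WSB1) were highest there, beside 6423 of all 19775 genes (32.5%) and 23.2% of medium genes lowest in control 1. The list's median difference from the mean of controls 2 and 3 was -0.42, and after quantile normalisation it was -0.52. The list was drawn up after these values were seen, so it restates them. Genes that went the other way, highest in control 1, included FOXO1, MALAT1, a nuclear noncoding RNA, at 9.23, 8.21 and 8.45, and FASN, the fatty acid synthase, at 9.61, 8.58 and 9.14. What set control 1 apart was not tested.

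The classes have soft edges. Just inside the high class lay PTBP1 at 12.002 ± 0.12, TCEA1 at 12.002 ± 0.11 and LSM7 at 12.01 ± 0.24, and just outside it lay UQCR10 at 11.9996 ± 0.094, CBX3 at 11.99 ± 0.11 and TRMT112 at 11.98 ± 0.068. At the lower limit of the medium class, ADGRE5 stood at 8.0002 ± 0.037, TRMT61A at 8.001 ± 0.043 and RPS6KB2 at 8.001 ± 0.024 on the inside. BPNT1, ZNF91 and UNC45A lay under it, with SDs of 0.084, 0.15 and 0.11 around means that round to the limit. At the near-background limit of 6.5, SLC25A45, CRHR1 and CRNN lay inside the low class and SLC23A3, LOC100129935 and CILP2 just under it, again by less than their SD between controls.

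A gene's other probe sets often gave another class. Of 210 high genes with 2 or more probe sets, the second brightest was high for 76 (36.2%), medium for 74 (35.2%), low for 41 and near background for 19. Of 3929 such medium genes, the second was medium for 2012 (51.2%), low for 1431 and near background for 486 (12.4%). CD79B is 1 case, with a second probe set averaging 6.46, and POU2AF1 another, with 5.94. A suffix _x_at or _s_at was carried by the probe set used for 65.9% of high genes, 43.1% of medium, 29.3% of low and 16.4% of near-background genes. The suffixes were pooled, so these shares do not say how many values come from other genes. With all probe sets of these suffixes left out, 119 genes were high, and genes with no other kind had no value. With the mean over all probe sets of each gene, 144 were high. In the near-background class 65.4% of genes had only 1 probe set, beside 31.1% in the high class.

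The number of members at 8 or more depended in many lists on which probe sets were read. Without probe sets of suffix _x_at or _s_at, where a gene that has no other kind is left with no value, it went from 21 to 13 for Burkitt lymphoma genes, from 10 to 5 for germinal centre zone genes and from 5 to 3 for progenitor B cell genes. Of the growth and division lists, translation factors went from 20 to 10, nucleolar genes from 20 to 13, glycolysis genes from 17 to 7, mitosis genes from 29 to 17 and heat shock genes from 12 to 6. B cell receptor kinases and adaptors went from 18 to 11, nuclear factor kappa B genes from 12 to 6, class I genes from 15 to 7 and class II genes from 14 to 9. Cytokines went from 4 to 0, cytokine receptors from 11 to 6, interferon response genes from 9 to 3, chromatin regulators from 21 to 9, and antibody gene diversification and repair genes from 17 to 10. E proteins and their inhibitors went from 8 to 3, MYC network genes from 5 to 2 and BCL2 family genes from 8 to 5. Genes of Toll-like receptors and their partners went from 4 to 2, noncoding RNA genes from 5 to 3 and hypoxia response genes from 13 to 8. With the mean over each gene's probe sets, B cell receptor genes went to 10, chromatin regulators to 10, diversification and repair genes to 10, lymphocyte traffic receptors from 7 to 4 and activated B cell type genes from 12 to 7. Under the alternatives run, the count was at least 16 for general B cell genes, against 20, and at least 13 for germinal centre genes, against 18.

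A low or near-background value is not proof of absence. RPLP2, a ribosomal stalk protein that every cell uses, measured 6.62, 6.73 and 6.78, in the low class, and EIF4A2, a translation helicase, measured 5.98, 5.96 and 6.08, near background, although a probe set that each shares with other genes stood at 8 or more. The same held for 59 of the 7638 near-background genes and for 243 of all genes. Some genes of the lists had no probe set with a single symbol in the annotation used and were not analysed here.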

How the data were processed

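The log2 values are those the authors deposited, 1 per probe set and array for 54675 probe sets; the base of the logarithm is inferred from their range, and the background correction, summary and normalisation that made them are not given in the sources used here. Only the 3 untreated arrays were read. Probe sets were named from the array annotation given with the series and then brought to the symbols of RefSeq's GRCh38.p14 gene table: 41091 probe sets had 1 symbol, of which 41037 matched and 0 changed, 1801 had several and were not named, 11721 had none here, and 62 were Affymetrix controls. Each gene was its brightest probe set with 1 symbol. Levels were summarised with Python 3.11.15, pandas 2.3.3 and numpy 2.4.6, and figures drawn with matplotlib 3.10.9. No test was made, since there is 1 group and the levels chose the classes; the steps were tested on simulated data. The number of arrays limits the precision. No detection calls were used.

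Genes named are members of 47 lists written from general knowledge, of 2 lists (immunoglobulin and hypoxia genes) added after the values were seen, the 30 genes with the highest means, 3 genes on each side of each limit, and the 12 with the largest SD and the 12 with control 1 farthest from the others, at a mean of 8 or more. The classes and lists were chosen with earlier results of these data known. Alternatives were leaving out each control, averaging all probe sets of a gene, dropping probe sets with suffix _x_at or _s_at, quantile normalisation, limits 0.5 lower or higher, requiring every control to pass the limit, and shorter or other promoters. Protein features were not analysed here.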

Additional observations from a re-analysis of the deposited data

How the results depend on the processing

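Leaving out each control in turn gave 301 to 312 high genes. Without probe sets whose suffix is _x_at or _s_at, 119 genes were high and 3695 medium, and the share of high genes whose second probe set reached 8 was 31.2%, against 71.4%. Genes with no other kind of probe set had no value there. Averaging all probe sets of a gene, 144 were high. Limits 0.5 lower gave 490 high, 10659 low and 1884 near-background genes, and limits 0.5 higher gave 188 high ones. The share of CpG-rich promoters with 250 bases before the start only was 83.4% of medium, 63.9% of low and 39.6% of near-background genes. With the most CpG-rich listed promoter of each gene, an alternative chosen after seeing the data, it was 91.7%, 72.4% and 45.7%, and with the mean over probe sets it was 73.5% of low and 44.4% of near-background genes. In each of these the low and near-background classes followed the high and medium ones, but with the most CpG-rich promoter the high class, at 91.1%, lay under the medium class. Under the other promoters 4 of 17 general B cell genes were again CpG-rich, and mitosis genes went from 22 to 20 of 23 with the shorter one. Quantile normalisation moved 0 of 98 list counts by more than 1.5 times, dropping the suffixed probe sets 42, limits 0.5 lower 41, limits 0.5 higher 30, and the mean over probe sets 26. Leaving out a control moved 2 to 4, requiring every control past the limit 10, and counting probe sets shared between genes, also chosen after seeing the data, 3. No paired analysis was possible because only the untreated group is described and its values come from no test.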

Other observations

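Some gene families outside the lists were measured as well, recognised by their symbols. Of 21 HNRNP genes, which encode proteins that package and splice new transcripts, 8 were high and 18 reached 8. Of 10 SRSF splicing factor genes, 3 were high and 9 reached 8. Of 9 CCT genes, which encode subunits of the chaperonin that folds actin and tubulin, 6 were high and 7 reached 8. At the other end, 29 of 34 keratin-associated protein genes of hair and 12 of 14 beta defensin genes were near background. Of the 305 high genes, 110 were members of the lists written from general knowledge.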
